A study of Mus musculus with 48 samples.

Results

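The genes of the microRNAs (miRNAs) miR-216a, miR-216b and miR-217 lie close together on mouse chromosome 11 as a cluster, and 3 of its mature products, mmu-miR-216a-5p, mmu-miR-216b-5p and mmu-miR-217-5p, are described here across 48 small RNA libraries of sensory and sympathetic ganglia. They are 3 of the 1978 mature miRNAs in the deposited count table. They were chosen by their level in these same libraries, which was higher in the trigeminal ganglion (TG), a sensory ganglion that serves the face and head, than in the superior cervical ganglion (SCG), which is sympathetic. The difference between the ganglia is therefore given as a description with no test. The tests concern treatment, time and sex, which the choice did not use. The effect of LPS was also compared between the ganglia, and correlations were tested within each ganglion.

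The animals were Balb/c mice aged 2.5 months. They received 2.5 mg/kg of lipopolysaccharide (LPS) from Escherichia coli, a part of the bacterial outer membrane that causes inflammation throughout the body, in 0.2 mL saline into the peritoneum, or the saline alone. The groups were TG after LPS and TG after saline, and SCG after LPS and SCG after saline, each at 4 h, 24 h and 7 d. Each of these 12 groups had 4 libraries from separate mice, 2 female and 2 male. A library held the RNA of whole ganglia from both sides of a mouse, so neurons, glia, vessels and attached tissue were measured together, and fewer cells of a type and less RNA per cell cannot be told apart. The labels count 48 mice, 24 of each sex, and do not say whether any TG and SCG libraries came from the same mouse.

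A miRNA hairpin is cut into a duplex of its 5p and 3p arms, and usually one arm is kept in the silencing complex, where its seed, the bases near its 5′ end, picks the mRNAs to be repressed. This cluster is best known from the acinar cells of the exocrine pancreas in mouse and human. miR-217 represses the deacetylase SIRT1 in human endothelial cells. Sensory neurons and sensory hair cells are marked by another cluster, that of miR-96, miR-182 and miR-183, against which the members are set below.

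The mature sequences are shown because the members differ in the bases that choose their targets. They are RefSeq's, 5′ to 3′, with the seed (bases 2 to 8) in capitals.
miR-216a-5p: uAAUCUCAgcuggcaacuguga
miR-216b-5p: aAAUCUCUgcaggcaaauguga
miR-217-5p: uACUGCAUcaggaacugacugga
miR-216a-3p: cACAGUGGucucugggauuaug
miR-216a-5p and miR-216b-5p were identical at 18 of 22 positions. Counted from 1 at the 5′ end, with the base of miR-216a-5p first, they differed by U1A, A8U, U11A and C17A. A8U is the last base of the seed, so the pair share the first 6 bases of the seed but not the whole of it. miR-217-5p matched each of them at 6 of 22 positions. None of the 3 seeds occurred in any other of the 1679 mature mouse miRNAs in the RefSeq table. The fourth sequence, miR-216a-3p, is the opposite arm of mir-216a and is shown because it had more counts than the 5p arm.

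In RefSeq's annotation of GRCm38.p6 all 3 hairpins lie on the plus strand of chromosome 11. Mir216b is at chr11:28746191-28746276, Mir216a at chr11:28757012-28757083 and Mir217 at chr11:28763728-28763835. The gaps between them are 10735 and 6644 bases, and the whole cluster spans 17645 bases. Mir216a and Mir217 lie in an intron of the long noncoding RNA gene Gm12082 in GENCODE M21, and within the extent of the noncoding gene Gm40818 in RefSeq. Mir216b has no host gene in GENCODE M21 and lies within the extent of the noncoding gene Mir217hg in RefSeq. A hairpin on the opposite strand, Mir216c, overlaps Mir216b by 69 bases. The hairpins are printed with the 5p and 3p arms in capitals, to show where each measured product is cut.
Mir216b: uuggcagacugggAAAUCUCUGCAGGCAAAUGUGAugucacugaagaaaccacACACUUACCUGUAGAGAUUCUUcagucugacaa
Mir216a: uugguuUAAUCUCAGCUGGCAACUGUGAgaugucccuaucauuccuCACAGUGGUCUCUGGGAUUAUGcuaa
Mir217: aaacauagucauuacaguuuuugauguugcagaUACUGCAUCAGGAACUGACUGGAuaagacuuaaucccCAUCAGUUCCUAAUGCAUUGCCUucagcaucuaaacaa

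Library totals, the depth behind each value, ran from 2198180 to 5166995 counts in TG and from 1774047 to 5592766 in SCG. Levels are given as CPM, the counts of each library brought to one common total by TMM scaling over all 48 libraries, and 3 counts correspond to 0.564 to 1.45 CPM in TG libraries and 0.532 to 1.53 CPM in SCG libraries. These limits cover counting error only. The markers of the sensory neuron, summed over miR-96-5p, miR-182-5p and miR-183-5p, ran from 57027 to 88266 CPM in TG and from 221 to 21072 CPM in SCG, so the labelled tissues and their markers went together. All 4 pancreas markers listed were in the table and summed to 22407 to 36062 CPM in TG and 10204 to 61872 CPM in SCG, nearly all of it miR-148a-3p, which many tissues hold. Of the others, miR-375-3p ran from 11.9 to 4457 CPM in TG and from 6.05 to 623 CPM in SCG, miR-802-5p had 5 counts in the 24 TG libraries together and 1 in the 24 SCG libraries, and miR-802-3p had 18 and 1, so both arms of miR-802 were at or near 0. A library that stood apart was SCG 24 h saline replicate 1, whose 3 sensory neuron markers summed to 21072 CPM, and results that rest on it are given with and without it. Another was SCG 7 d LPS replicate 2. It held 3.58 CPM of miR-124-3p and 230 CPM of miR-9-5p, which mark neurons, against SCG medians of 141 and 8249 CPM. Its miR-128-3p, also a neuron marker, went the other way, at 35645 CPM against an SCG median of 2127 CPM. It also held 3289 CPM of miR-142a-3p of leukocytes and 33974 CPM of miR-1a-3p of muscle, against SCG medians of 72.6 and 668 CPM. In TG, replicates 1, 2 and 4 of the 7 d saline group held 605 to 628 CPM of miR-124-3p, whereas the other 21 libraries held 234 to 354 CPM.

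miR-217-5p had the highest level of the members in TG, with a mean of 524 ± 77.2 CPM (SD, n = 24), against 14.03 ± 33.6 CPM in SCG (SD, n = 24). miR-216b-5p averaged 305 ± 41.4 CPM in TG and 7.78 ± 17.3 CPM in SCG, and miR-216a-5p averaged 16.8 ± 3.42 CPM in TG and 0.493 ± 1.07 CPM in SCG. The ratio of the means was 37.3 for miR-217-5p, 39.2 for miR-216b-5p and 34.02 for miR-216a-5p. Without SCG 24 h saline replicate 1 the SCG means were 7.34, 4.44 and 0.291 CPM and the ratios were 71.4, 68.7 and 57.7. Both SCG means of miR-216a-5p were below the 0.532 to 1.53 CPM that 3 counts correspond to, so its ratios are uncertain. Ordered by the difference in mean log2 CPM between TG and SCG over 577 miRNAs, miR-217-5p was first (6.40), miR-216b-5p second (6.28) and miR-216a-5p 10th (4.33). Between them stood the sensory neuron markers miR-96-5p in place 3, miR-183-5p in place 6 and miR-182-5p in place 7, the myelinating glia marker miR-219a-2-3p in place 4, miR-216a-3p in place 5, miR-34a-5p in place 8 and miR-182-3p in place 9. The 3 myelinating glia markers summed to a median of 2786 CPM in TG and 522 CPM in SCG. By level in TG the members were far from the top: miR-217-5p ranked 101st of 577, miR-216b-5p 122nd and miR-216a-5p 317th.

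**Figure D1:**
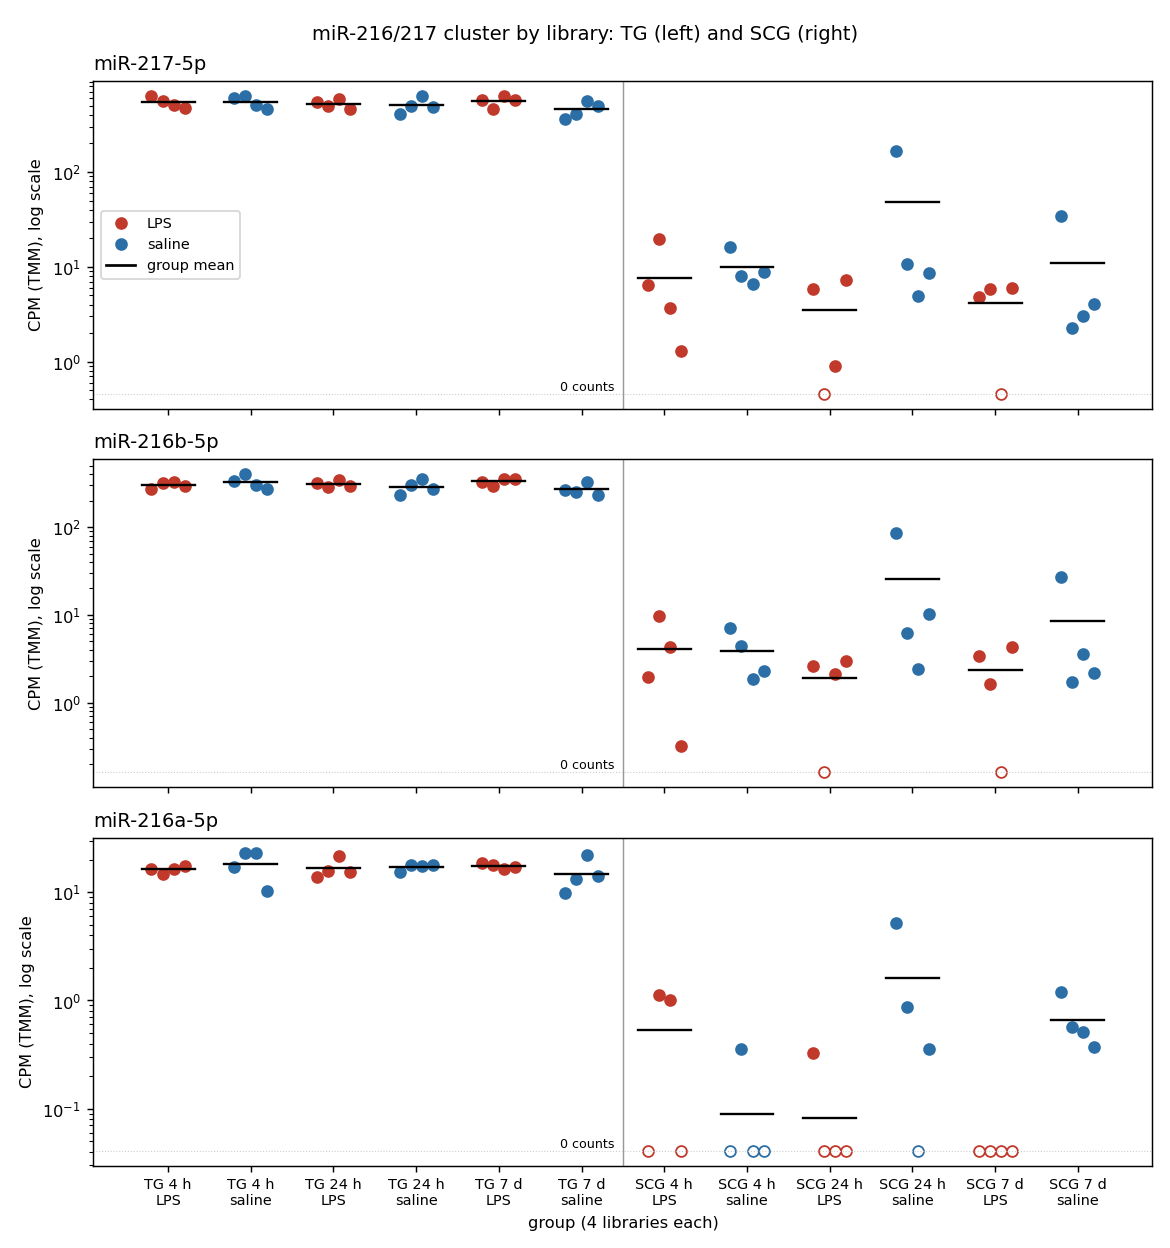
Level of each member by library (CPM after TMM scaling, log scale) in the 12 groups of 4 libraries, TG left of SCG and LPS (red) left of saline (blue); lines are group means and open circles are libraries with 0 counts. All TG libraries lie above all SCG libraries for the 3 members, which were chosen as higher in TG. SCG 24 h saline replicate 1, with 168 CPM of miR-217-5p, is the highest SCG library.

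Library by library, miR-217-5p in TG was as follows. At 4 h it had 629.8, 558, 507 and 470.2 CPM after LPS, against 600.1, 633, 509 and 461 CPM after saline. At 24 h it had 553, 496, 589 and 462 CPM after LPS, against 406, 502, 629 and 491 CPM after saline. At 7 d it had 579, 459, 634 and 578 CPM after LPS, against 362, 410.1, 560.3 and 498 CPM after saline. The ranges of the treated and the saline libraries overlapped at each time, and the lowest 3 of the 24 libraries were all saline libraries, 2 of 7 d and 1 of 24 h. The lowest TG library of each member was still above the highest SCG library, at 362 against 168 CPM for miR-217-5p, 231 against 84.6 CPM for miR-216b-5p and 9.85 against 5.15 CPM for miR-216a-5p. The sensory neuron markers were separated too, at 29403 against 12806 CPM for miR-183-5p, 21062 against 7376.5 CPM for miR-182-5p and 3206 against 890 CPM for miR-96-5p. How many of the 577 miRNAs were separated in this way was not counted. The coefficient of variation over the 24 TG libraries was 14.7% for miR-217-5p, 13.6% for miR-216b-5p and 20.3% for miR-216a-5p. Counting error alone would give 2.23%, 2.90% and 12.4%. The spread was thus larger than counting error for all 3, and came nearest to it for miR-216a-5p, which had 34 to 96 counts a library, against 1304 to 2747 for miR-217-5p.

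Ordered by mean level, the 6 TG groups ran from 563 ± 73.7 CPM (7 d LPS) to 458 ± 88.6 CPM (7 d saline) for miR-217-5p, with 551 ± 79.6 (4 h saline), 541 ± 69.2 (4 h LPS), 525 ± 56.8 (24 h LPS) and 507 ± 92.1 CPM (24 h saline) between them (SD, n = 4 each). For miR-216b-5p the order ran from 332 ± 29.3 CPM (7 d LPS) to 271 ± 42.1 CPM (7 d saline). For miR-216a-5p it ran from 18.4 ± 6.09 CPM (4 h saline) to 14.7 ± 5.10 CPM (7 d saline). The 7 d saline group was thus the lowest for all 3. Of the 15 pairs of neighbours in these orders, the difference in means was within the larger SD in 15 and the ranges overlapped in 15.

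In SCG the members had few counts, with a median per library of 19.5 for miR-217-5p, 8 for miR-216b-5p and 0 for miR-216a-5p. miR-217-5p had 6.39, 19.5, 3.67 and 1.28 CPM after LPS at 4 h, against 16.3, 7.98, 6.52 and 8.79 CPM after saline. At 24 h it had 5.90, 0, 0.909 and 7.28 CPM after LPS, against 168, 10.8, 4.88 and 8.54 CPM after saline. At 7 d it had 4.78, 5.86, 0 and 5.96 CPM after LPS, against 34.01, 2.29, 3.05 and 4.05 CPM after saline. The 2 libraries at 0 were both LPS libraries, and the 2 highest libraries were both saline libraries. miR-216b-5p was detected in 22 of 24 SCG libraries with a median of 2.79 CPM. miR-216a-5p was detected in 11 of 24, with 37 counts in all, of which 16 were in SCG 24 h saline replicate 1. It had 0 counts in all 4 SCG 7 d LPS libraries, while each of the 4 SCG 7 d saline libraries had 1 to 3 counts. How many other miRNAs had 7 d groups that did not overlap in SCG was not counted. Also in SCG, the difference between neighbours in the order of groups was within the larger SD in 15 of 15 pairs.

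The arms are compared by their read counts, and the intervals given cover counting error only. In TG, mir-217 was read almost wholly from its 5p arm, with 48348 counts of 5p and 79 of 3p, a 5p share of 99.8%. mir-216b was also read mostly from the 5p arm, with 28471 and 516 counts, a 5p share of 98.2%. mir-216a went the other way. Its 3p arm had 6276 counts and its 5p arm 1563, a 5p share of 19.9% (95% Wilson interval 19.1 to 20.8%), and the share was between 14.8% and 28.9% in every TG library. The 3p arm of mir-216a thus had 4.02 times the counts of its 5p arm in TG. miR-216a-3p averaged 67.7 ± 12.2 CPM in TG and 1.31 ± 3.86 CPM in SCG (SD, n = 24 each), where the mean was 0.537 CPM without SCG 24 h saline replicate 1. In SCG the 5p share of mir-216a was 27.8%, from 37 counts of 5p and 96 of 3p (20.9 to 35.98%), and in SCG 24 h saline replicate 1 alone it was 21.3% (13.6 to 31.9%). miR-216b-3p averaged 5.55 ± 1.49 CPM in TG and 0.243 ± 0.729 CPM in SCG, with 0.0999 CPM without that library. The products of the opposite-strand hairpin Mir216c, miR-216c-5p and miR-216c-3p, had 0 counts in all 48 libraries.

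**Figure D2:**
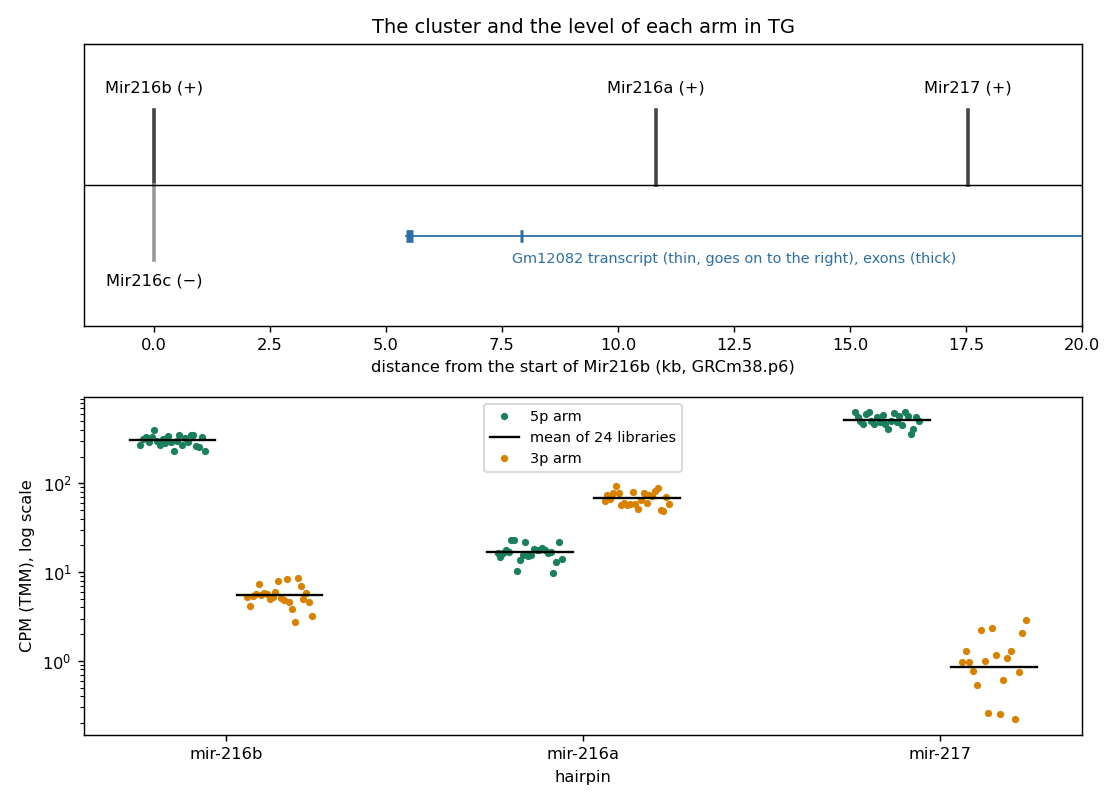
Top: position of the hairpins relative to the start of Mir216b in kb on GRCm38.p6, with strand, above the Gm12082 transcript. Bottom: CPM after TMM scaling (log scale) of the 5p and 3p arm of each hairpin, where points are the TG libraries with counts and lines the means of 24. The 3p arm lies above the 5p arm for mir-216a only among the 3 hairpins, at means of 67.7 and 16.8 CPM.

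The members kept much the same mean proportions across the 6 TG groups, while single libraries differed more. Of the summed counts of the 3 members, miR-217-5p made 61.8 ± 2.40%, miR-216b-5p 36.2 ± 2.37% and miR-216a-5p 1.99 ± 0.331% in TG (SD, n = 24). The share of miR-217-5p ran from 56.9% in TG 7 d saline replicate 1 to 68.8% in TG 4 h LPS replicate 1. Its SD was 4.32% in the 4 h LPS group and 4.12% in the 7 d saline group, against 0.851 to 1.57% in the other TG groups. In 23 SCG libraries pooled, which held 856 member counts, the shares were 61.3% (95% Wilson interval 58.0 to 64.5%), 36.2% (33.1 to 39.5%) and 2.45% (1.61 to 3.72%). In SCG 24 h saline replicate 1, with 801 member counts, they were 65.2% (61.8 to 68.4%), 32.8% (29.7 to 36.2%) and 2.00% (1.23 to 3.22%). The intervals cover counting error only, not the spread between mice. Among single SCG libraries with member counts the share of miR-217-5p ran from 30% (of 10 counts) to 80% (of 5 counts). The TG mean share of miR-217-5p lies within both the pooled and the single-library interval, and the TG mean share of miR-216b-5p lies within the pooled SCG interval and just above the upper bound of that of the single library. Within TG, LPS and saline libraries were compared at each time for each of the 3 shares. The smallest of the 9 p-values was 0.257 (exact two-sided permutation test, n = 4 against 4, where the smallest p that can be reached is 0.0286), for miR-216b-5p at 24 h, at 36.5 ± 1.22% after LPS and 35.6 ± 0.780% after saline. All 9 adjusted p-values were 1, and the differences lay between -0.967 and 1.10 percentage points.

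**Figure D3:**
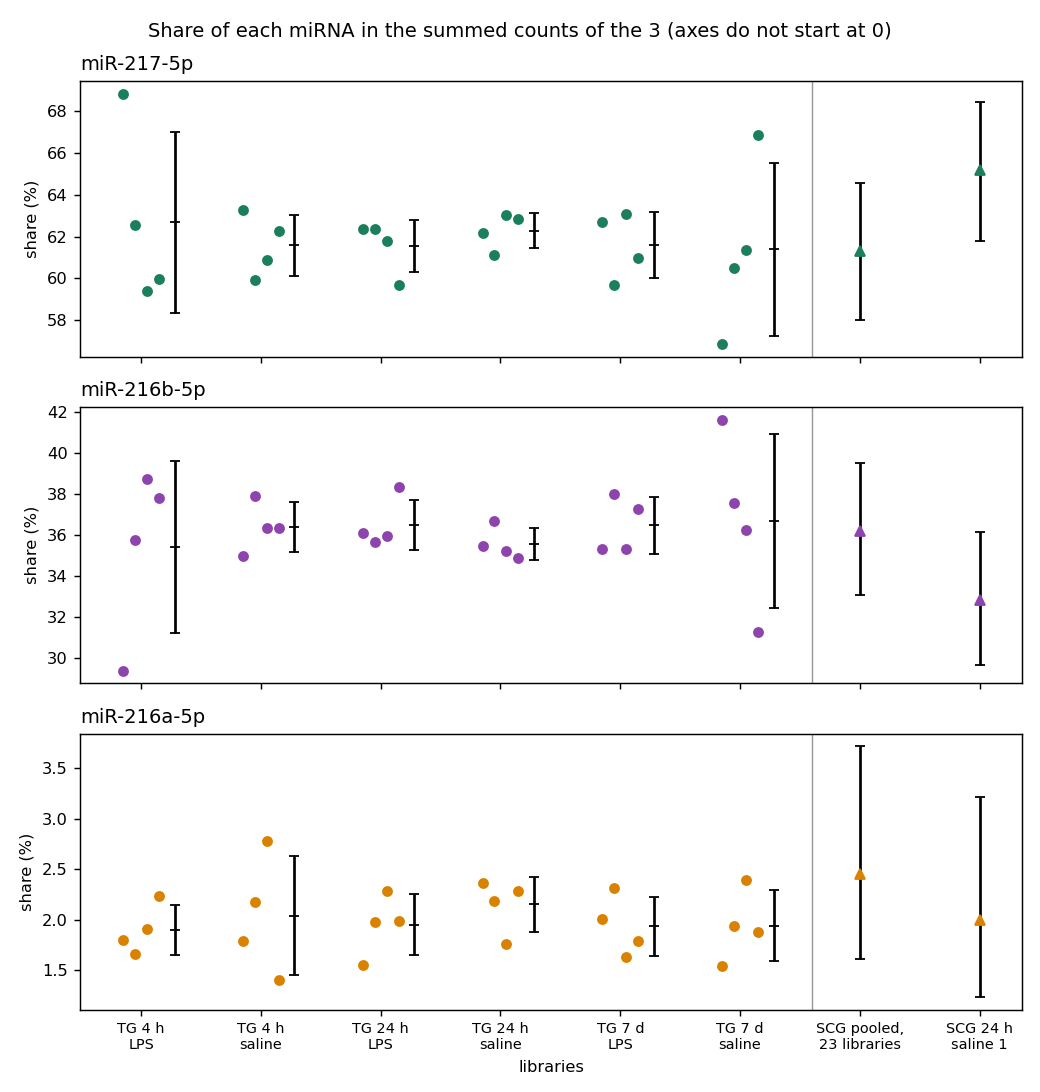
Share of each member in the summed counts of the 3 members, in percent; the axes do not start at 0. Points are TG libraries, bars beside them the mean and SD of 4, and triangles the pooled 23 SCG libraries and SCG 24 h saline replicate 1 with 95% Wilson intervals. The share of miR-217-5p averages between 61.4% and 62.7% in the 6 TG groups and is 61.3% in the pooled SCG libraries.

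The members were compared with the sensory neuron marker miR-183-5p from library to library. In SCG, the level of miR-217-5p followed that of miR-183-5p over 24 libraries (Pearson r = 0.860, adjusted p = 3e-05, permutation test, where the raw p of 1e-05 is the smallest that 100000 permutations can give and 3 relations were tested; Spearman rho = 0.764, adjusted p = 6e-05). Without the 2 libraries farthest from the median, SCG 24 h saline replicate 1 and SCG 7 d saline replicate 1, r was 0.734 (adjusted p = 0.00027, permutation test, n = 22). For miR-216b-5p r was 0.751 (adjusted p = 9e-05) and rho 0.495 (adjusted p = 0.0226), and without those libraries r was 0.481 (adjusted p = 0.0335) and rho 0.344 (adjusted p = 0.174), so the relation by rank rests on them. The sparse miR-216a-5p did not pass the filter on low counts in SCG and had 0 counts in 13 of the 24 libraries. Its r was 0.611 and rho 0.282, and r was 0.157 without the same libraries, so its relation is not read. After each group's mean was taken away, r was 0.823, 0.709 and 0.570 for miR-217-5p, miR-216b-5p and miR-216a-5p.

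SCG 24 h saline replicate 1 held 32.1% of the TG mean of miR-217-5p, 27.7% of that of miR-216b-5p and 30.7% of that of miR-216a-5p. It held 30.6% of the TG mean of miR-183-5p (12806 CPM), 27.8% of that of miR-182-5p, and 20.9% of that of miR-96-5p. Markers of other cells were at differing shares. Near those of the members were miR-1a-3p of muscle (33.7%), the neuronal miR-128-3p (30.4%) and miR-375-3p (31.3%). For miR-375-3p the median of the other 23 SCG libraries was 38.3% of the TG mean, so it was not raised. Higher shares were those of the neuronal miR-124-3p (62.1%) and miR-9-5p (77.8%), miR-142a-3p of leukocytes (79.5%), miR-148a-3p (49.5%) and miR-10b-5p (412%). miR-1a-3p was 2135 CPM in that library and miR-128-3p 5631 CPM, against medians of 553 and 2124 CPM in the other 23 SCG libraries. Its miR-10a-5p, a miRNA of the Hox clusters that was lower in TG than in SCG, was 3737 CPM, above the TG range of 122 to 837 CPM and within the SCG range of 2797 to 5003 CPM. In SCG 7 d saline replicate 1 the members stood at 6.49%, 8.78% and 7.15% of their TG means, and miR-183-5p at 9.98%. At the other end, the 2 SCG libraries with 0 counts of all 3 members, 24 h LPS replicate 2 and 7 d LPS replicate 3, had 116 and 166 CPM of miR-183-5p, against an SCG median of 583 CPM. Per 1000 CPM of miR-183-5p there were 10.9 to 16.95 CPM of miR-217-5p in TG libraries (median 12.2) and 0 to 15.7 CPM in SCG libraries (median 9.81), so the ranges of the ratio overlapped, but 17 of 24 SCG libraries lay below the lowest TG library. Among the SCG libraries with counts of miR-217-5p the ratio was lowest in SCG 4 h LPS replicate 4, with 1944 CPM of miR-183-5p and 1.28 CPM of miR-217-5p, a ratio of 0.661. The part of sensory neurons or of other attached tissue in these SCG values was not tested.

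**Figure D4:**
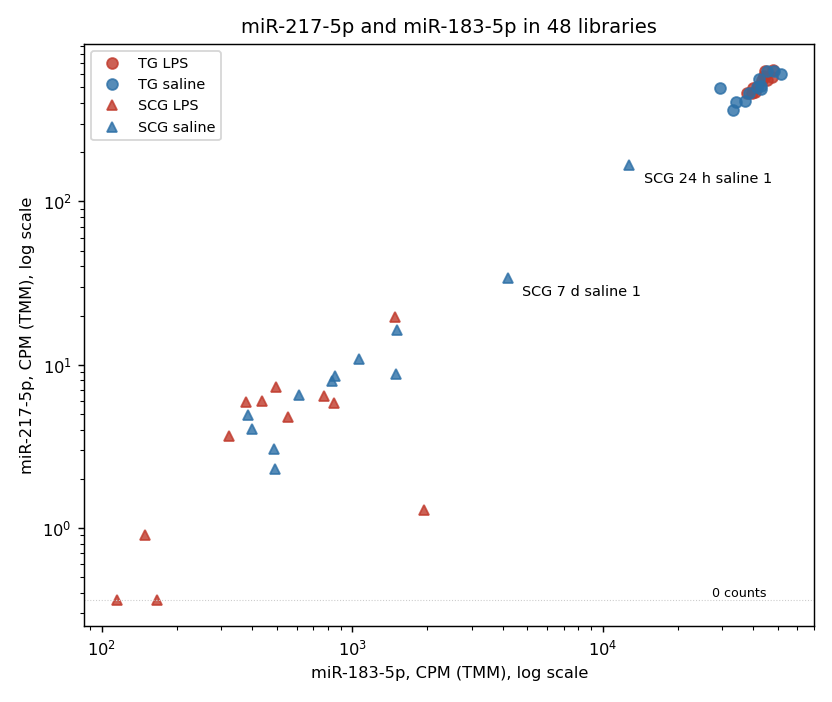
miR-217-5p against miR-183-5p (both CPM after TMM scaling, log scales) in the 24 TG libraries (circles) and 24 SCG libraries (triangles), LPS in red and saline in blue; libraries with 0 counts are drawn on the dotted line. The TG libraries lie at 362 to 634 CPM of miR-217-5p, above the SCG libraries, which run from 0 CPM at 116 CPM of miR-183-5p to 168 CPM at 12806 CPM.

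Within TG, where all members were well counted, they also varied together. Over 24 libraries the log2 CPM of miR-216b-5p and miR-217-5p correlated at r = 0.739 (adjusted p = 6e-05) and rho = 0.787 (adjusted p = 3e-05, permutation tests adjusted over 3 pairs). The pair miR-216a-5p and miR-216b-5p gave r = 0.560 and rho = 0.550 (adjusted p = 0.00418 and 0.00914). The pair miR-216a-5p and miR-217-5p gave r = 0.577 and rho = 0.496 (adjusted p = 0.00418 and 0.0145). Without the 2 libraries farthest from the median, r was 0.668 (adjusted p = 0.00192), 0.531 (adjusted p = 0.0165) and 0.387 (adjusted p = 0.0765), and rho was 0.728 (adjusted p = 0.00057), 0.451 (adjusted p = 0.0552) and 0.370 (adjusted p = 0.0909). The relation of miR-216a-5p with miR-217-5p, and by rank also that with miR-216b-5p, thus rests on the libraries left out for both, TG 7 d saline replicate 1 and TG 4 h saline replicate 4. After the group means were taken away r was 0.669, 0.520 and 0.528, and rho was 0.590 (adjusted p = 0.00855), 0.389 (adjusted p = 0.0618) and 0.417 (adjusted p = 0.0618).

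The miRNAs outside the cluster whose level was most like that of a member were mostly the sensory neuron markers. By Spearman correlation over the 24 TG libraries, among 526 miRNAs, miR-217-5p was most like miR-183-5p (0.900), followed by miR-182-5p (0.807) and miR-493-5p (0.746). miR-216b-5p was most like miR-183-5p (0.80), miR-504-5p (0.763) and miR-674-3p (0.724). miR-216a-5p was most like miR-665-3p (0.556), miR-182-5p (0.550) and miR-183-5p (0.515). Over all 48 libraries, where the difference between the ganglia sets most of the order, miR-217-5p and miR-216b-5p were most like miR-183-5p (0.958 and 0.912), followed by miR-182-5p (0.930 and 0.881) and by miR-96-5p (0.916 and 0.878). There miR-216a-5p was most like miR-24-1-5p (0.865), miR-138-1-3p (0.861) and miR-182-5p (0.858). The libraries share their scaling, and these values are descriptions with no test.

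No member was called for LPS in TG at any time. At 4 h the log2 fold change of LPS over saline was -0.023 ± 0.16 (SE) for miR-217-5p, -0.10 ± 0.14 for miR-216b-5p and -0.18 ± 0.23 for miR-216a-5p. At 24 h it was 0.057 ± 0.16, 0.11 ± 0.14 and -0.046 ± 0.22. Adjusted p-values were 1.00 for each at 4 h and 0.998 for each at 24 h (edgeR's quasi-likelihood test, Benjamini-Hochberg over 538 miRNAs). The background at 4 h was 0 of 538 miRNAs called (0%, with 15 at an unadjusted p under 0.05 and 2 called by DESeq2), and at 24 h 2 of 538 (0.372%). The median log2 fold change of the members was -0.10 at 4 h and 0.057 at 24 h, and that of all miRNAs tested was 0.00080 and 0.0022.

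At 7 d the members were higher after LPS in the mean, but none passed. miR-217-5p averaged 563 ± 73.7 CPM after LPS and 458 ± 88.6 CPM after saline (SD, n = 4 each), with 3 of 4 LPS libraries above the highest saline library, and the log2 fold change was 0.30 ± 0.16 (SE, adjusted p = 0.255, edgeR). miR-216b-5p had 326, 293, 355 and 353 CPM after LPS, against 265, 254, 331 and 233 CPM after saline, which gave a log2 value of 0.30 ± 0.14 (SE, adjusted p = 0.195, edgeR). The ranges overlapped, with 2 of 4 LPS libraries above the saline libraries. miR-216a-5p had 18.5, 17.8, 16.5 and 16.99 CPM after LPS, against 9.85, 13.2, 21.9 and 14.03 CPM after saline, which gave a log2 value of 0.26 ± 0.22 (SE, adjusted p = 0.543, edgeR). Its LPS libraries all lay inside the range of the saline libraries. The opposite arm miR-216a-3p had 73.1, 71.2, 82.8 and 88.9 CPM after LPS, against 50.1, 49.4, 71.0 and 58.4 CPM after saline, which gave a log2 value of 0.47 ± 0.17 (SE, adjusted p = 0.0889, edgeR). Its ranges did not overlap, with the lowest LPS library at 71.2 and the highest saline library at 71.0 CPM. The number of other miRNAs whose 7 d groups did not overlap in TG was not counted. The members' median log2 fold change was 0.30, against -0.0053 over all miRNAs tested. So 0 of 3 members were called, against a background of 33 of 538 miRNAs (6.13%) at this time; 1 member, miR-216b-5p, was under 0.05 unadjusted, and DESeq2 also called 0 of 3.

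The 7 d values hang on which saline libraries are used. The 4 LPS libraries held 39548 to 47982 CPM of miR-183-5p. The 3 saline libraries with high miR-124-3p (replicates 1, 2 and 4) had the lowest miR-183-5p of the saline group, at 33305, 37129 and 29403 CPM, and saline replicate 3 had 41971 CPM. Their part in the difference was not tested. With replicate 3 as the only saline library of that time, the log2 fold changes were 0.0039 for miR-217-5p, 0.031 for miR-216b-5p and -0.31 for miR-216a-5p, the last with its direction turned. Without replicate 3 instead, miR-216b-5p passed at 0.42 (adjusted p = 0.0486, edgeR) and so did miR-216a-3p at 0.59 (adjusted p = 0.0210, edgeR). Over the 8 refits that each left out 1 of the 7 d TG libraries, 18 to 88 miRNAs were called in all. With the earlier saline libraries in their place, 4 of 4 h and 4 of 24 h, the 7 d LPS libraries gave 0.093, 0.11 and -0.027 for miR-217-5p, miR-216b-5p and miR-216a-5p.

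**Figure D5:**
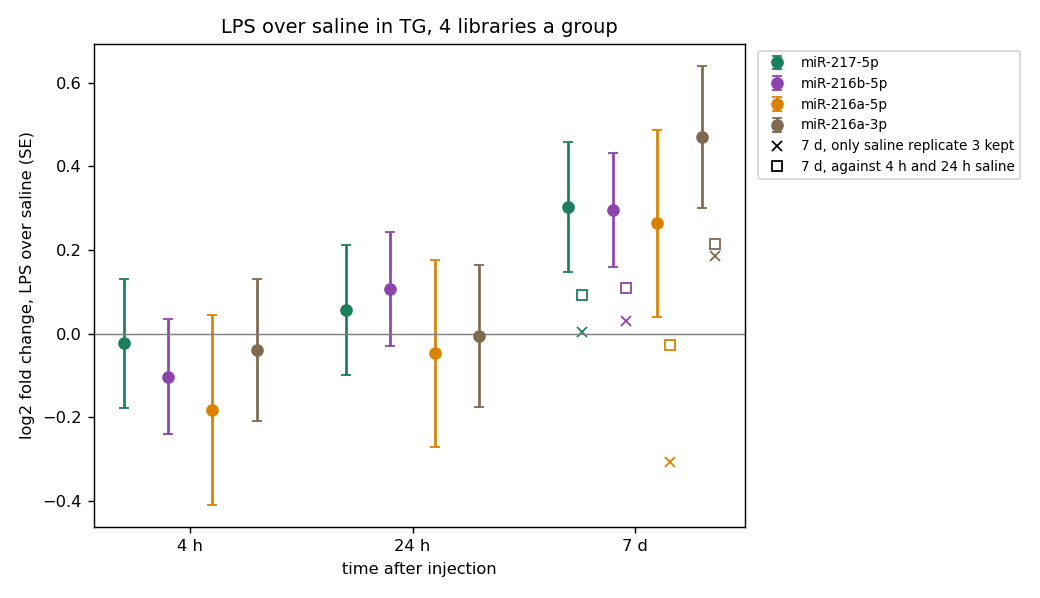
log2 fold change of LPS over saline in TG at each time, with its SE, for the 3 members and miR-216a-3p (filled circles); at 7 d, crosses keep only saline replicate 3 and squares use the earlier saline libraries in place of those of 7 d. At 7 d the filled circles lie between 0.26 and 0.47, and the crosses and squares lie below them.

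The effect of LPS was also compared between times within TG. The difference in log2 fold change between 7 d and 4 h was 0.33 ± 0.22 for miR-217-5p, 0.40 ± 0.19 for miR-216b-5p and 0.45 ± 0.32 for miR-216a-5p (SE; adjusted p = 0.474, 0.304 and 0.506, edgeR), so 0 of 3 members were called against a background of 10 of 538 (1.86%). For 7 d against 24 h and for 24 h against 4 h, 0 of 3 were called and the background was 0 of 538 (0%, with 72 and 16 miRNAs under 0.05 unadjusted, and 17 and 0 called by DESeq2). Among saline libraries, 7 d was lower than 4 h by a log2 value of -0.26 ± 0.16 for miR-217-5p, -0.26 ± 0.14 for miR-216b-5p and -0.33 ± 0.23 for miR-216a-5p (adjusted p = 0.324, 0.249 and 0.408, edgeR). None of the 3 was called there, against a background of 41 of 538 (7.62%), nor between 7 d and 24 h, where it was 49 of 538 (9.11%), or between 24 h and 4 h, where it was 0 of 538 (0%, 19 unadjusted, 0 by DESeq2). Among LPS libraries 0 of 3 were called at each pair of times, with backgrounds of 0.186% (24 h against 4 h), 0.186% (7 d against 4 h) and 0% (7 d against 24 h, 31 unadjusted, 3 by DESeq2), and the members' log2 fold changes lay between -0.044 and 0.13.

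Male and female TG libraries differed little. miR-217-5p averaged 532 ± 63.1 CPM in males and 516 ± 91.3 CPM in females, miR-216b-5p 311 ± 39.1 and 299.6 ± 44.6 CPM, and miR-216a-5p 17.5 ± 3.58 and 16.1 ± 3.25 CPM (SD, n = 12 each). The log2 fold changes of male over female were 0.051 ± 0.090, 0.052 ± 0.079 and 0.12 ± 0.13 (SE, adjusted p = 0.984 for each, edgeR), with 0 of 538 miRNAs called (0%, 24 unadjusted, 0 by DESeq2). The difference of the LPS effect between males and females was -0.15 ± 0.13, 0.13 ± 0.14 and -0.044 ± 0.25 (adjusted p = 0.999 for each, edgeR), with 1 of 538 called (0.186%).

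In SCG, miR-216a-5p did not pass the filter on low counts, and the other 2 members were tested among 506 miRNAs. At 24 h both were lower after LPS in the mean, at 1.93 ± 1.33 CPM against 25.9 ± 39.3 CPM for miR-216b-5p and 3.52 ± 3.60 CPM against 48.1 ± 80.0 CPM for miR-217-5p (LPS against saline, SD, n = 4 each). The log2 fold changes were -3.14 ± 1.13 and -2.95 ± 1.17 (SE; adjusted p = 0.635 and 0.745, edgeR). Without SCG 24 h saline replicate 1 they were -1.67 and -1.10. At 4 h they were 0.041 ± 1.08 and -0.73 ± 1.08 (adjusted p = 0.998 for both, edgeR), and at 7 d -1.56 ± 1.12 and -1.09 ± 1.13 (adjusted p = 0.434 and 0.576, edgeR). Without SCG 7 d saline replicate 1 the 7 d values were -0.24 and 0.077, so the direction for miR-217-5p rests on that library. Thus 0 of 2 members were called at each time, against backgrounds of 0 of 506 at 4 h (0%, 13 unadjusted and 1 by DESeq2), 2 at 24 h (0.395%) and 3 at 7 d (0.593%). The sensory neuron markers summed to 221 to 3795 CPM in the 12 SCG LPS libraries and to 783 to 21072 CPM in the 12 SCG saline libraries, and their part in these values was not tested. The SE of each of these log2 values was above 1.

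The effect of LPS in TG was set against that in SCG in a fit of all 48 libraries, for miR-217-5p and miR-216b-5p. miR-216a-5p entered that fit only through its TG counts and did not pass the filter in SCG, where its LPS libraries held 7 counts at 4 h, 1 at 24 h and 0 at 7 d in all, so its fitted differences are not read. At 24 h the difference, TG minus SCG, was 3.48 ± 1.15 for miR-217-5p and 3.61 ± 1.08 for miR-216b-5p (log2, SE, adjusted p = 0.320 and 0.178, edgeR). Without SCG 24 h saline replicate 1 it was 1.11 and 1.73. At 7 d it was 1.56 ± 1.14 and 2.04 ± 1.07 (adjusted p = 0.429 and 0.239, edgeR), and at 4 h 0.43 ± 1.11 and -0.15 ± 1.06 (adjusted p = 1.00 for both, edgeR). Neither was called at any time, against backgrounds of 0 of 577 at 4 h (0%, 22 unadjusted, 0 by DESeq2), 0 of 577 at 24 h (0%, 20 unadjusted and 6 by DESeq2) and 8 of 577 at 7 d (1.39%).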

How the data were processed

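Small RNA was sequenced from 48 ganglion samples with a ligation-based small RNA kit, per the labels' protocols. The authors deposited whole-number counts per mature miRNA, with no normalisation in the file. The submitters' processing notes name FastQC 0.11.9 and GRCm39, while for the aligner and counting tool the name is not given in the sources used here. The same holds for how near-identical sequences were assigned, which could move counts between miR-216a-5p and miR-216b-5p. Sequences and coordinates are from RefSeq's GRCm38.p6 tables, in which all members matched.

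Groups were taken from the labels. Counts were tested with edgeR 4.0.16 (TMM, expression filter with a minimum count of 10, quasi-likelihood F test with a sex term) in R 4.3.3, on the 24 TG, 24 SCG or all 48 libraries, and p-values were adjusted over all miRNAs tested. A call means an adjusted p under 0.05. DESeq2 1.42.0, other scalings, no filter and left-out libraries were alternatives. log2 CPM for correlations used a prior count of 2, and permutation tests used scipy 1.17.1. The fits were tested on simulated data with known changes. The 72 replicate pairs all differed beyond counting noise.

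Named miRNAs are the members, their opposite arms, cell type markers and, per member, the 3 miRNAs with the highest Spearman correlation over TG and over all libraries. The members and lists were chosen with earlier results of these data known. The tRNA fragment tables were not used here.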

Additional observations from a re-analysis of the deposited data

Results flagged for a closer look

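In 11 of 47 sets of 4 replicates, 1 library lay far from the other 3 by Dixon's gap test. Chance does so in about 1 of 20 independent sets of normally distributed values. The sets here share libraries and some hold counts at or near 0, so the 11 of 47 cannot be read against that rate. SCG 24 h saline replicate 1 was high for all 3 members, at 168 CPM of miR-217-5p (others 4.88 to 10.8), 84.6 CPM of miR-216b-5p (others 2.44 to 10.3) and 5.15 CPM of miR-216a-5p (others 0 to 0.879). SCG 7 d saline replicate 1 was high for miR-217-5p at 34.01 CPM (others 2.29 to 4.05) and for miR-216b-5p at 26.8 CPM (others 1.71 to 3.56). In both libraries miR-183-5p was also high, at 12806 and 4175 CPM, the highest values of the SCG libraries, and its part was not tested.

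Single SCG libraries had miR-216a-5p where the other 3 of the group had 0 counts, at 0.355 CPM (2 counts) in SCG 4 h saline replicate 2 and 0.328 CPM (1 count) in SCG 24 h LPS replicate 1. In TG, miR-216a-5p was low in 24 h saline replicate 1, at 15.5 CPM (others 17.6 to 17.99). Of the opposite arms, miR-216a-3p was high in TG 24 h LPS replicate 3, at 79.4 CPM (others 57.7 to 58.7), and miR-216b-3p was high in TG 4 h saline replicate 1, at 7.43 CPM (others 5.54 to 5.81), and in TG 24 h saline replicate 3, at 8.42 CPM (others 4.62 to 5.08).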

How the results depend on the processing

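No paired analysis was possible because the replicate numbers only name samples and the labels do not say whether TG and SCG libraries came from the same mice. In the LPS comparisons within TG no member was called under any scaling, tool, filter or model tried on the full set of libraries. Left-out libraries gave 0 to 1 members called at 7 d in TG. Without the expression filter, 2 members were called in SCG at 24 h, where 15 miRNAs were called in all. For TG minus SCG, 3 members were called at 24 h and 3 at 7 d, where 12 and 84 of 1505 miRNAs were called. These fits kept SCG 24 h saline replicate 1 and SCG 7 d saline replicate 1. The 3 members include miR-216a-5p, which did not pass the filter in SCG, and its calls are not read as an effect. With the filter, DESeq2 called 1 member for TG minus SCG at 24 h and 1 at 7 d, where it called 6 and 72 miRNAs. Leaving out SCG 24 h saline replicate 1 called 1 member at 7 d, where 10 miRNAs were called. In the cases with 1 member called for TG minus SCG, it was miR-216a-5p, which passed the filter only through TG, and its call is not read as an effect. The cause was not tested. Without the 2 farthest libraries, r fell short of the threshold at 0.387 (miR-216a-5p with miR-217-5p in TG) and 0.157 (miR-216a-5p with miR-183-5p in SCG); by rank, miR-216a-5p with miR-216b-5p in TG (rho 0.451) and miR-216b-5p with miR-183-5p in SCG (rho 0.344) also did. Over all miRNAs the number called in the 20 comparisons was 0 to 49 in the fits reported, 0 to 72 with DESeq2 and 4 to 84 without the filter; for LPS at 7 d it was 33, 55 and 54 in TG, and 3, 52 and 69 in SCG, and in TG it was 0 with saline replicate 3 alone and 1 against the earlier saline libraries, and 18 to 88 with 1 library left out.

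With saline replicate 3 as the only TG 7 d saline library (a choice made after seeing the data, as was the use of the earlier saline libraries), these log2 values turned: for miR-216a-5p -0.31 (LPS at 7 d), -0.12 (7 d minus 4 h), -0.26 (7 d minus 24 h), 0.24 and 0.35 (saline, 7 d against 4 h and 24 h); for miR-216b-5p -0.076 (7 d minus 24 h) and 0.19 (saline, 7 d against 24 h); for miR-217-5p -0.048 (7 d minus 24 h), 0.039 and 0.17 (saline, 7 d against 4 h and 24 h) and -0.038 (male over female). Against the earlier saline libraries miR-216a-5p gave -0.027 and miR-216b-3p -0.15. Values near 0 also turned with 1 library left out. For LPS in TG at 4 h the ranges were -0.24 to 0.0050 (miR-216b-5p), -0.15 to 0.065 (miR-217-5p) and -0.20 to 0.13 (miR-216a-3p); at 24 h -0.19 to 0.015 (miR-216a-5p), -0.041 to 0.18 (miR-217-5p), -0.12 to 0.10 (miR-216a-3p) and -0.055 to 0.27 (miR-216b-3p); at 7 d -0.047 to 0.40 (miR-216b-3p). For LPS in SCG they were -0.44 to 0.41 (miR-216b-5p, 4 h) and -1.92 to 0.077 (miR-217-5p, 7 d), and for TG minus SCG at 4 h -0.52 to 0.67 (miR-216b-5p). Between times they were, for the LPS effect at 24 h minus 4 h, -0.0062 to 0.39 (miR-216a-5p) and -0.022 to 0.21 (miR-217-5p); in saline libraries -0.35 to 0.043 (miR-216a-5p, 24 h against 4 h) and -0.20 to 0.015 (miR-216b-5p, 7 d against 24 h); in LPS libraries at 24 h against 4 h -0.10 to 0.10 (miR-216a-5p), -0.0072 to 0.089 (miR-216b-5p) and -0.13 to 0.055 (miR-217-5p), and at 7 d against 4 h -0.018 to 0.17 (miR-217-5p). The difference of the LPS effect between males and females was -0.21 to 0.19 (miR-216a-5p).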
